A study of Mus musculus with 29 samples.

Results

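The 43 genes described here encode proteins that build or serve the contractile machinery of skeletal muscle, and they were measured in RNA from mouse subcutaneous white fat. They were chosen by name, with their high level in 4 of the fat libraries already known, and are 43 of the 17536 genes listed in both deposited tables. The study set mice lacking Ncoa1 (KO), a coactivator of nuclear receptors, against wild-type (WT) mice of both sexes, each given CL316,243 (CL), an agonist of the beta-3 adrenergic receptor, or saline (NaCl). CL was injected intraperitoneally at 0.5 mg per kg body weight over 7 days. The mice with a library fell into 8 groups: 3 female KO mice given CL, 3 female KO mice given NaCl, 4 female WT mice given CL, 2 female WT mice given NaCl, 4 male KO mice given CL, 3 male KO mice given NaCl, 4 male WT mice given CL and 4 male WT mice given NaCl. The labels used here do not state how the knockout allele was made, the strain or the age. Taking each library name as a mouse gives these 27 mice in 29 columns, because the names F4 and M23 each occur in both tables. Whether the 2 columns of such a name come from the same animal is not stated. Values are FPKM, fragments per kilobase of transcript scaled to a common number of mapped fragments, which correct for gene length and library depth, so that levels of different genes can be set side by side per length.

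Skeletal muscle contracts when thick filaments of myosin pull on thin filaments of actin that are anchored at Z discs. Calcium released from the sarcoplasmic reticulum through the ryanodine receptor binds troponin on the thin filament and starts the contraction, and the SERCA pump returns the calcium. Fast and slow fibres use different genes for myosin, for each troponin subunit and for several other parts, so their messages show which kind of fibre a sample holds. White fat cells build no sarcomere, although a few of these genes are also active outside muscle.

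The libraries F22 (female KO, NaCl, replicate 2), M14 (male WT, CL, replicate 4), M21 (male KO, NaCl, replicate 1) and M34 (male KO, CL, replicate 4) stood apart in these genes. The 43 genes together took 14.7% of the summed FPKM in F22, 0.989% in M14, 0.871% in M21 and 0.236% in M34, against 0.0181% to 0.0797% in the other 25 columns (median 0.0283%). The columns closest below M34, which had a summed level of 1529 FPKM, were the first-table column of M23 with 501 FPKM and M22 with 434 FPKM, both male KO mice given NaCl. The 4 libraries were singled out by these values, so every comparison of them with the other columns is a description without a test. In these bulk libraries more cells of a type and more RNA per cell cannot be told apart.

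**Figure D1:**
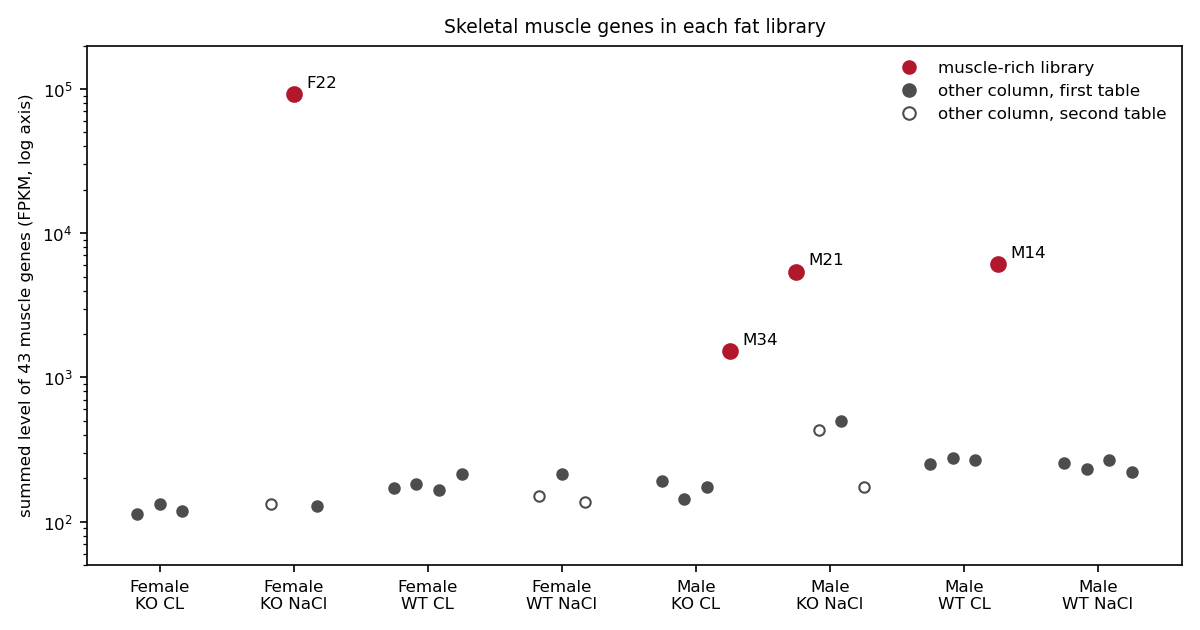
Summed FPKM of the 43 muscle genes (log axis) in each of the 29 columns by group, with the 4 muscle-rich libraries in red and columns of the second table open. F22 lies at 91650.0 FPKM, M14, M21 and M34 lie between 1529 and 6065 FPKM, and all other columns lie between 113 and 501 FPKM.

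The fat and the labels were checked in the same columns. Ncoa1 read 1.47 to 2.9 FPKM in KO columns and 4.93 to 9.16 FPKM in WT columns, and the Y-linked gene Ddx3y read 9.62 to 15.3 FPKM in male columns and at most 0.01 FPKM in female columns. The adipocyte gene Adipoq was at 1561 FPKM in F22, against 2168 and 2270 FPKM in the other female KO mice given NaCl. Plin1, which coats lipid droplets, was at 275 FPKM in F22, against 507 and 481 FPKM in those mice. The 8 white adipocyte markers summed to 27080.0 FPKM in F22, 42900.0 FPKM in M14, 65010.0 FPKM in M21 and 72360.0 FPKM in M34, against 35320.0 to 77200.0 FPKM in the other columns. F22 alone lay below that range, and fat genes were abundant in all 4 libraries.

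Most of the 43 genes followed one pattern across the columns. All 43 were highest in F22, and in 32 of them all 4 libraries lay above all 25 other columns. The same held for 88 of the 13174 genes analysed (0.668%), and for 0 genes did all 4 lie below (0.0%). These shares are printed as background only, because the genes were chosen on this contrast. With M34 set aside, F22, M14 and M21 lay above all other columns in 37 genes, and with M21 set aside as well, F22 and M14 did so in 41. The share of all genes was not counted for these looser rules or for being highest in F22, here or below. Those counts are descriptions only. In all 43 genes M34 was lower than both M14 and M21. By role, the genes with all 4 libraries above were 8 of 11 for the thick filament, 5 of 9 for the thin filament, 7 of 9 for the Z disc and titin, 5 of 6 for calcium handling, 6 of 6 for metabolism and 1 of 2 ubiquitin ligases. The number of the 43 genes at 1 FPKM or more was 43 in F22, 43 in M14, 41 in M21 and 30 in M34, and ranged from 9 to 26 in the other columns.

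**Figure D2:**
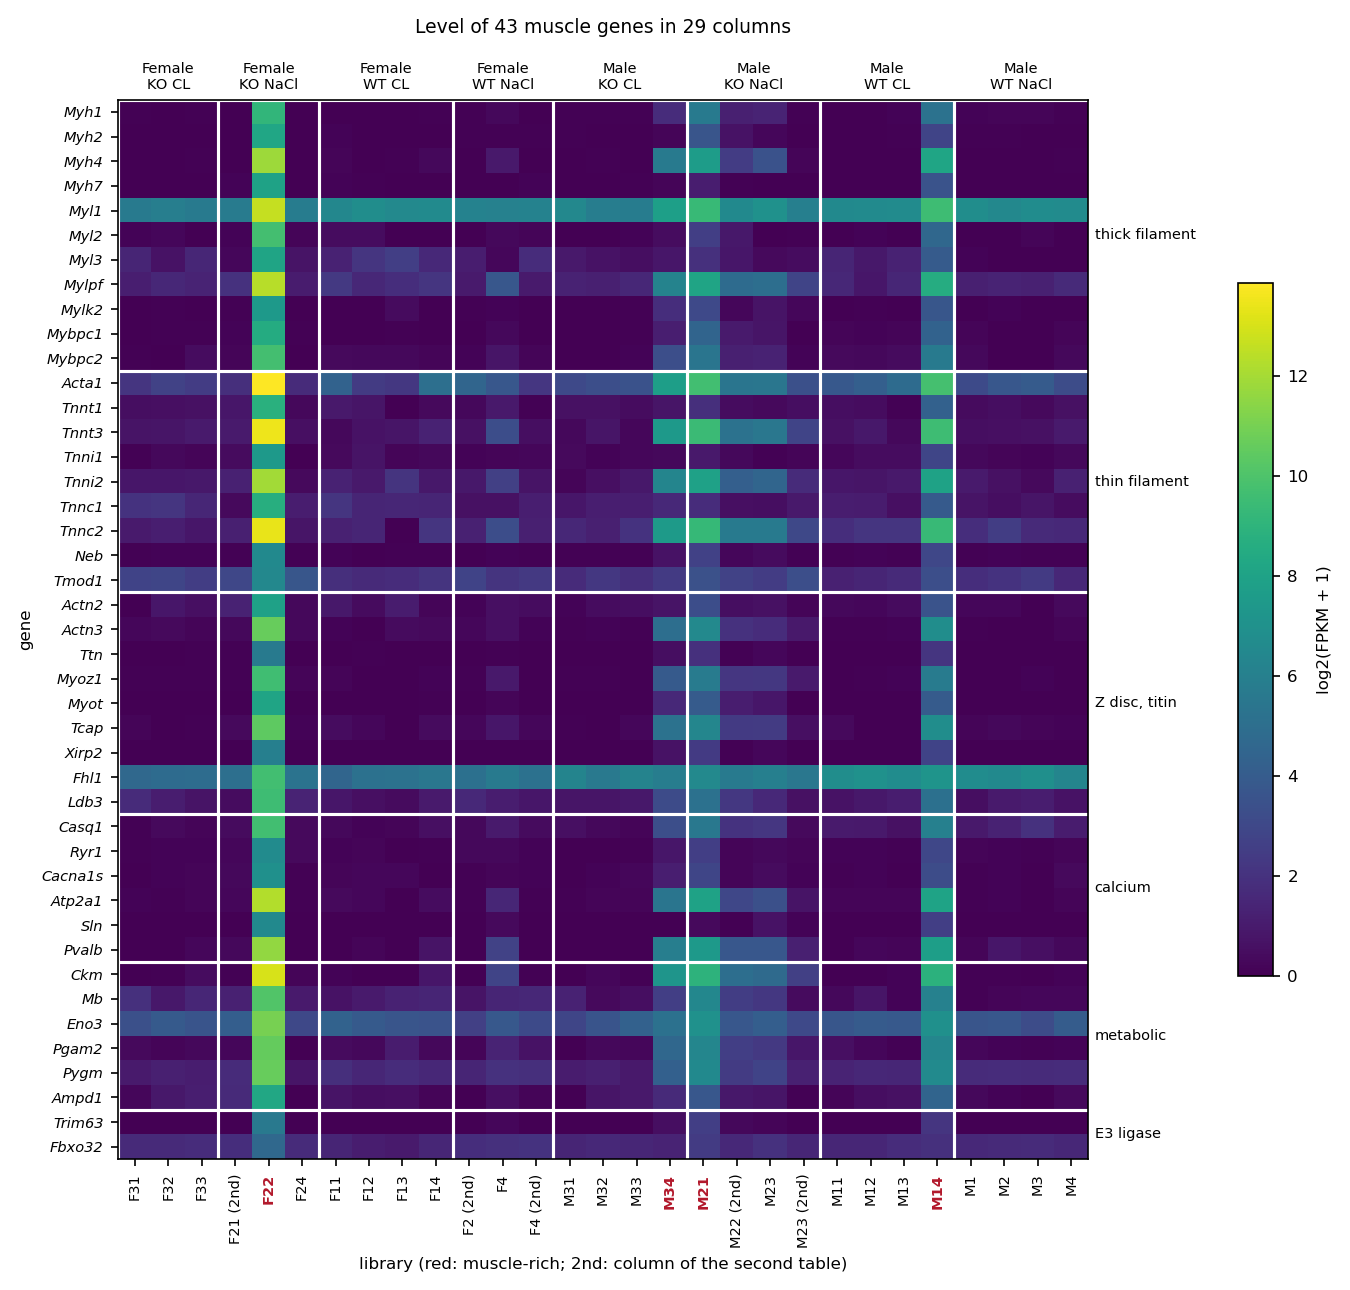
Level of each of the 43 genes as log2(FPKM + 1) in the 29 columns, with genes grouped by role and columns by group. F22 is bright in every row, M14, M21 and M34 in most rows, and Myl1, Fhl1, Eno3 and Acta1 in all other columns, while M22 and the first-table column of M23 also show several fast genes, with 26 and 24 genes at 1 FPKM or more.

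Among the thick filament genes, the heavy chain of the fastest fibres (type IIB), Myh4, was at 3671 FPKM in F22, 279.6 FPKM in M14, 198.6 FPKM in M21 and 48.7 FPKM in M34, against a median of 0.02 FPKM and at most 10.3 FPKM in the other columns. The column with 10.3 FPKM was M23 in the first table, and apart from M22 (4.55 FPKM) all others were under 1 FPKM. Mylpf, the regulatory light chain of fast fibres, was at 5385 FPKM in F22, 377 FPKM in M14, 274 FPKM in M21 and 73.6 FPKM in M34, against 0.81 to 30.6 FPKM elsewhere. Both fast genes thus separated the 4 libraries from all other columns. Myl1, the essential light chain of fast fibres, also separated them, with 6453, 741, 638 and 226 FPKM in F22, M14, M21 and M34, but it was already at 50.3 to 127 FPKM in the other columns. Mylk2, the myosin light chain kinase of skeletal muscle, stayed under 1 FPKM in all other columns and was at 171 FPKM in F22 and 2.53 FPKM in M34. Myl3, the essential light chain shared by slow fibres and heart ventricle, was at 276 FPKM in F22, 15.1 FPKM in M14, 2.85 FPKM in M21 and 0.82 FPKM in M34, against 0 to 4.94 FPKM in the other columns, so M21 and M34 lay inside that range. Myl2, the regulatory light chain of slow fibres and ventricle, was at 852, 24.1, 4.87 and 0.39 FPKM in F22, M14, M21 and M34, against at most 0.86 FPKM elsewhere. Mybpc2, the fast myosin-binding protein C, was at 835, 50.8, 41.0 and 9.01 FPKM, against at most 1.5 FPKM, and so separated all 4 libraries where the slow light chains did not.

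The thin filament gave the highest level of all 43 genes. Acta1, skeletal muscle actin, was at 14860.3 FPKM in F22, 868 FPKM in M14, 796 FPKM in M21 and 213 FPKM in M34, against 2.3 to 43.2 FPKM in the other columns (median 9.6 FPKM). The fast troponin subunits ran in parallel. Tnnt3, which binds tropomyosin, was at 11786, 758, 695 and 176 FPKM in F22, M14, M21 and M34, against 0.2 to 43.7 FPKM elsewhere. Tnnc2, the calcium sensor, was at 10667, 637, 634 and 190.1 FPKM, against 0 to 50.1 FPKM elsewhere, and Tnni2, the inhibitory subunit, was at 3958, 256, 245 and 78.8 FPKM, against 0.16 to 22.3 FPKM elsewhere. All 3 fast subunits therefore left a wide gap between M34 and the highest other column. The slow subunits did not: Tnnc1 read 417 FPKM in F22, 14.2 FPKM in M14, 2.4 FPKM in M21 and 2.03 FPKM in M34, against 0.27 to 3.44 FPKM elsewhere, and Tnni1 read 181, 6.43, 0.94 and 0.21 FPKM, against 0 to 0.66 FPKM elsewhere. Neb, the ruler protein of the thin filament, was at 96.1, 6.68, 5.42 and 0.6 FPKM in F22, M14, M21 and M34 and at most 0.32 FPKM elsewhere, while Tmod1, which caps the filament's pointed end, was at 88.5, 9.2, 10.0 and 4.05 FPKM, against 1.46 to 12.2 FPKM elsewhere.

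The Z disc and titin genes repeated the order. Actn3, the alpha-actinin of fast fibres, was at 1602 FPKM in F22, 110.5 FPKM in M14, 89.96 FPKM in M21 and 31.3 FPKM in M34, against at most 2.94 FPKM elsewhere. Tcap, which caps titin at the Z disc, was at 1378, 111, 82.2 and 36.8 FPKM, against at most 4.36 FPKM elsewhere, and Myoz1, a calcineurin-binding protein of fast fibres, was at 782, 53.5, 52.7 and 14.1 FPKM, against at most 3.72 FPKM. Ttn, the giant elastic protein titin, had 51.3, 3.48, 2.78 and 0.43 FPKM, against at most 0.17 FPKM, and Myot, a filamin-binding protein, had 268, 15.0, 14.8 and 2.03 FPKM, against at most 1.14 FPKM. Each of these 5 genes had all 4 libraries above every other column. Actn2, the alpha-actinin of all fibre types and heart, was at 244, 10.7, 8.8 and 0.68 FPKM, and M34 there lay within the 0.02 to 1.48 FPKM of the other columns. Fhl1, a LIM protein also made outside muscle, was at 821, 142, 91.5 and 57.2 FPKM, against 21.9 to 129 FPKM elsewhere, so that M21 and M34 lay within the range of the fat columns. Xirp2, a filamentous actin-binding protein, and Ldb3, a PDZ-LIM protein that links alpha-actinin to the disc, completed the group at 63.1 and 751 FPKM in F22, and both had all 4 libraries above every other column.

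Of the 6 calcium handling genes, 5 marked all 4 libraries and had medians of at most 0.31 FPKM in the other columns. Atp2a1, the SERCA pump of fast fibres, was at 4909 FPKM in F22, 263 FPKM in M14, 254 FPKM in M21 and 41.5 FPKM in M34, against a median of 0.13 and at most 9.31 FPKM in the other columns. Pvalb, the calcium buffer parvalbumin of fast fibres, was at 3078, 217, 175 and 60.1 FPKM, against a median of 0.13 and at most 12.7 FPKM. Casq1, the calcium store protein of the reticulum, was at 799, 64.6, 45.4 and 8.91 FPKM, against at most 3.6 FPKM. The release channel Ryr1 and its voltage sensor Cacna1s work as one coupling unit and kept close proportions, with Ryr1 at 83.2%, 79.2%, 76.3% and 65.1% of the Cacna1s level in F22, M14, M21 and M34. Sln, sarcolipin, a small inhibitor of the SERCA pump, was the exception: it read 95.4 FPKM in F22, 4.84 FPKM in M14, 0.3 FPKM in M21 and 0 FPKM in M34, against 0 to 0.61 FPKM elsewhere. Relative to Atp2a1 it was at 1.94% in F22 and 1.84% in M14 but at 0.118% in M21.

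The metabolic genes all separated the 4 libraries. Ckm, muscle creatine kinase, which buffers ATP, was at 8316 FPKM in F22, 472 FPKM in M14, 498 FPKM in M21 and 148 FPKM in M34. In the other columns it was at 31.3 FPKM in M22, 26.6 and 5.24 FPKM in the M23 columns, 6.21 FPKM in the first-table column of F4 and at most 0.8 FPKM in the rest. This gene was therefore close to a yes or no marker, with a middle tier of 3 mice. Within the names held by both tables the columns differed: F4 read 6.21 FPKM in the first table and 0.07 FPKM in the second. Mb, the oxygen store myoglobin, stood at 13.0%, 14.2% and 16.8% of the Ckm level in F22, M14 and M21 and at 3.34% in M34. Pvalb, in contrast, kept 37.0%, 46.0%, 35.2% and 40.6% of the Ckm level in the 4 libraries. Pygm, muscle glycogen phosphorylase, had 1587, 97.3, 95.4 and 18.2 FPKM, Pgam2, a glycolytic mutase, had 1533, 80.7, 80.7 and 23.7 FPKM, and Eno3, muscle enolase, had 2076, 124, 126 and 34.95 FPKM. Eno3 was also at 5.2 to 19.9 FPKM in the other columns. Ampd1, the AMP deaminase of muscle, separated the libraries by the smallest margin of these genes, with 311 FPKM in F22 and 2.16 FPKM in M34, against at most 2.12 FPKM elsewhere.

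The last members are 2 ligases that tag muscle proteins for breakdown. Trim63 (MuRF1) was at 47.6 FPKM in F22, 3.37 FPKM in M14, 4.96 FPKM in M21 and 0.41 FPKM in M34, against at most 0.22 FPKM elsewhere. Fbxo32 (atrogin-1) was at 24.9, 2.83, 4.37 and 1.64 FPKM, against 1.03 to 3.06 FPKM elsewhere, so M14 and M34 lay among the fat columns. Both ligases were higher in M21 than in M14, as were 8 other members, while 33 of the 43 genes were higher in M14.

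Fibre type was read from 14 genes of fast fibres and 7 of slow fibres, and the libraries did not share one fibre make-up. Each gene's level in M14, M21 and M34 was expressed as a percentage of its level in F22, after subtracting the gene's median over the other columns from both. In M14 the median was 6.77% for the fast forms and 4.12% for the slow forms. In M21 it was 5.67% for the fast forms but 0.504% for the slow forms, and in M34 it was 1.41% and 0.0521%. M14 and M21 thus held the fast genes at a similar level, with ratios of M14 to M21 from 0.53 to 1.42, while 6 of the 7 slow genes were higher in M14 and the highest ratio was 9.54. The seventh, Mybpc1, is named slow myosin-binding protein C but is also found in fast fibres. It was at 5.78% of F22 in M21 and 5.27% in M14.

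**Figure D3:**
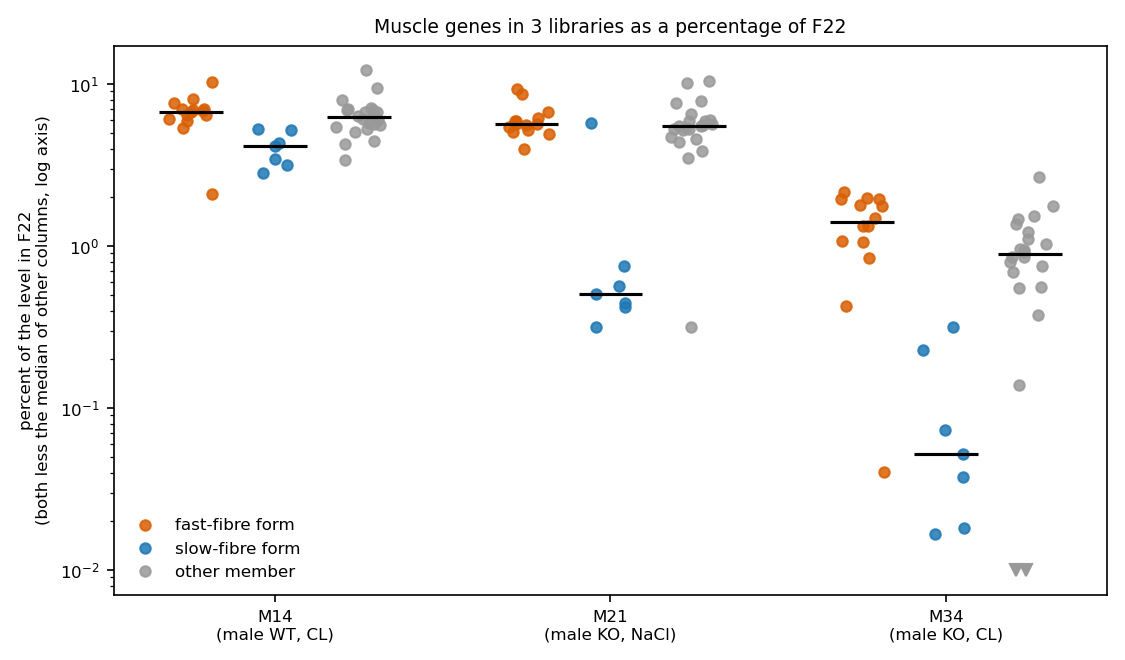
Level of each gene in M14, M21 and M34 as a percentage of its level in F22, after subtracting the median of the other columns (log axis), for 14 fast forms, 7 slow forms and the other members, with bars at the medians and triangles for values under 0.01%. The slow forms lie near the fast forms in M14 (4.12% against 6.77%) and far below them in M21 (0.504% against 5.67%) and M34 (0.0521% against 1.41%).

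The troponin pairs gave the same reading gene by gene. Tnni1 was at 4.58% of Tnni2 in F22, 2.51% in M14, 0.384% in M21 and 0.267% in M34. Tnnt1 was at 3.73% of Tnnt3 in F22, 2.44% in M14, 0.377% in M21 and 0.414% in M34. Tnnc1 was at 3.91% of Tnnc2 in F22, 2.23% in M14, 0.38% in M21 and 1.07% in M34. The slow subunits summed to 3.78% of all troponin FPKM in F22, 2.32% in M14, 0.377% in M21 and 0.663% in M34. F22 and M14 therefore carried slow troponin at a few percent of this sum, and M21 and M34 at under 1 percent of it. In M34 the slow troponins were within the range of the other columns. In M21 Tnnc1 was too, but Tnnt1 (2.62 against at most 0.95 FPKM) and Tnni1 (0.94 against at most 0.66 FPKM) were above it. Of the other slow genes in M21, Myh7 (1.13 against at most 0.1 FPKM), Myl2 (4.87 against at most 0.86 FPKM) and Mybpc1 (21.35 against at most 1.0 FPKM) were above it. Myl3 was within it.

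Adult myosin heavy chain messages were mostly Myh4 in all 4 libraries, and the remainder differed. Myh4 made up 77.0% of the summed FPKM of Myh1, Myh2, Myh4 and Myh7 in F22, 83.9% in M14, 75.7% in M21 and 94.8% in M34, and 85.1% in the first-table column of M23. Myh1, the type IIX chain, made up 11.5% in F22, 11.0% in M14, 19.4% in M21 and 4.62% in M34. Myh2, the type IIA chain, made up 6.23%, 1.87%, 4.5% and 0.292%. The slow chain Myh7 made up 5.23% in F22 and 3.23% in M14, but 0.431% in M21 and 0.292% in M34. Thus M21, which was low in slow genes, had the highest share of Myh1 and kept Myh2, while M34 held mostly Myh4, with Myh1 at 2.37 FPKM, above the 1.62 FPKM that it reached in any column outside the 4 libraries. At 0.15 FPKM each, Myh2 and Myh7 in M34 were below the 0.61 FPKM that Myh2 reached in M22 and just above the 0.1 FPKM that Myh7 reached elsewhere.

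**Figure D4:**
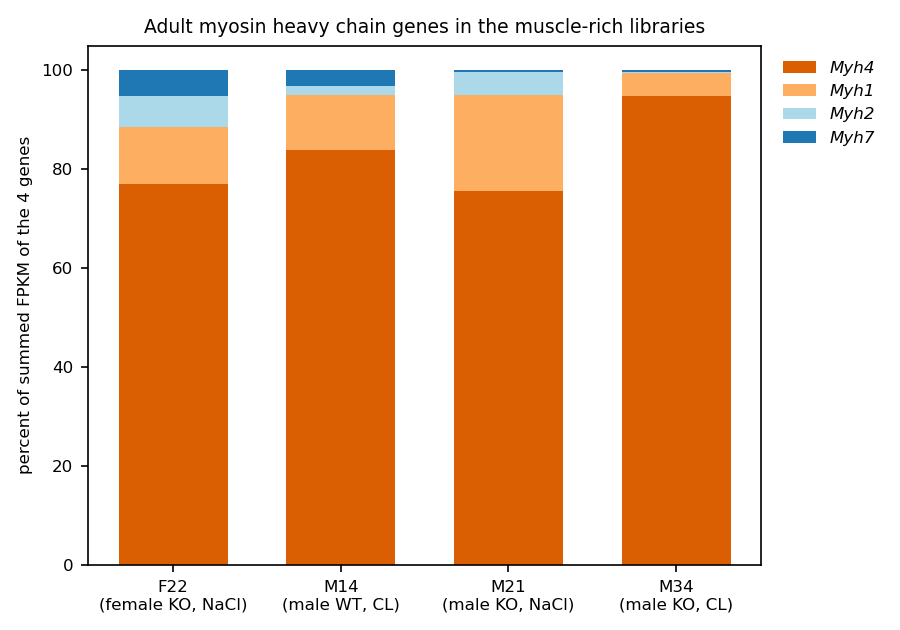
Shares of Myh4, Myh1, Myh2 and Myh7 in their summed FPKM (percent, from 0) in F22, M14, M21 and M34. Myh4 makes up 75.7% to 94.8% of each bar, Myh7 is visible in F22 and M14, and the Myh1 share is highest in M21.

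Myh2, Myh1 and Myh4 lie side by side in this order within chr11:67171027-67260447 (GRCm38, plus strand), and Myh7 lies on chromosome 14. The genes are near copies of each other in parts, which bears on how reads were divided among them. Of all 50-base stretches of the transcript, 26.1% in Myh1, 26.7% in Myh2 and 18.6% in Myh4 also occur in a transcript of another myosin heavy chain gene, and 22.2% in Myh7, mostly shared with Myh6, against 0.0% in Acta1. For 100-base stretches the shares were 9.46%, 9.17%, 3.85% and 11.2%. The longest coding stretch found in Myh1, Myh2 and Myh4 alike has 140 bases and is shown because no read inside it can be assigned to one gene. It runs over exons 14 and 15 of Myh4, on the plus strand of GRCm38, from the first to the last base of chr11:67246503-67248546 with the intron between them left out, and it is written in lower case throughout because all of it is identical in the 3 genes:
Myh4 transcript bases 1639 to 1778: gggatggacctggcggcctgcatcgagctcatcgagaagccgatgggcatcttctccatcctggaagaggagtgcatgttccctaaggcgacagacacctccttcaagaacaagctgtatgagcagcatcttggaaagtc
How reads that fit several places were counted is not stated, so small shares of Myh2 beside much Myh4 are uncertain.

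Genes of the same machinery outside the 43 moved with them. Of 28 other sarcomere genes, 28 were highest in F22 and 14 had all 4 libraries above all other columns, among them Tpm1, the tropomyosin of fast fibres, at 7827, 582, 411 and 124 FPKM in F22, M14, M21 and M34, against at most 86.0 FPKM elsewhere. Of 22 other calcium and membrane genes 8 did so, and of 18 other metabolic genes 2, Cox6a2, a respiratory subunit of striated muscle, and Art1, named after its values were seen. Aldoa, a glycolytic aldolase also made in fat, did not: it was at 9734, 4822, 2752 and 3699 FPKM, against 1625 to 7230.0 FPKM elsewhere, so that F22 alone lay above the other columns. The transcription factors that set muscle identity were also present at low level. Myf6 was at 41.9, 3.62, 3.17 and 0.56 FPKM, against at most 0.56 FPKM elsewhere, and Myod1 at 8.07, 0.49, 0.34 and 0.08 FPKM, against at most 0.05 FPKM. The embryonic myosin Myh3 was at 0.44 FPKM in F22 and 0.41 FPKM in M14 and at most 0.03 FPKM in M21, M34 and all other columns. Heart genes stayed low, with Actc1 at 4.26, 2.57, 0.03 and 0.07 FPKM, against at most 0.26 FPKM elsewhere, and the ryanodine receptor of heart, Ryr2, at 0.01 to 0.03 FPKM in the 4 libraries. The 9 smooth muscle markers summed to 878 FPKM in F22, 140 FPKM in M14, 87.97 FPKM in M21 and 85.8 FPKM in M34, against 26.8 to 184 FPKM elsewhere, and 3 of the 9 were highest in F22. The 3 were Des, an intermediate filament protein that skeletal muscle also makes, at 782 FPKM in F22, Synpo2 at 35.1 FPKM and Lmod1 at 10.8 FPKM, against at most 23.1, 12.7 and 2.94 FPKM outside the 4 libraries. Smooth muscle myosin Myh11 was at 4.27, 9.51, 4.04 and 8.79 FPKM, within the 1.97 to 14.7 FPKM of the other columns, and the part of smooth muscle was not tested.

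Some skin markers were high in F22 and M14, the libraries where most slow fibre genes were highest. The 6 keratinocyte markers summed to 194 FPKM in F22, 78.6 FPKM in M14, 4.27 FPKM in M21 and 2.58 FPKM in M34, against 2.31 to 44.4 FPKM in the other columns, and all 6 were highest in F22. Krt1, a keratin of the upper epidermis, was at 12.1 FPKM in F22, 6.71 FPKM in M14, 0.03 FPKM in M21 and 0 FPKM in M34, against at most 0.04 FPKM elsewhere. Krt10, its partner, was at 103, 38.2, 1.75 and 1.03 FPKM, against at most 3.22 FPKM elsewhere. In M21 and M34, 4 of the 6 markers were under 0.1 FPKM. For the other 4 markers the gap was smaller or absent. Krt5 was at 30.2, 11.97, 0 and 0 FPKM in F22, M14, M21 and M34, against at most 11.7 FPKM elsewhere, and Krt15 at 18.9, 9.26, 0 and 0 FPKM, against at most 7.37 FPKM. Krt14 was at 23.7, 9.64, 0.03 and 0 FPKM, against at most 21.0 FPKM, and Trp63, a regulator of basal skin cells, at 6.35, 2.82, 2.46 and 1.55 FPKM, against 1.18 to 4.65 FPKM, so M14 lay within the other columns for both. F22 and M14, where most slow fibre genes were highest, thus exceeded all other columns in Krt1, Krt10, Krt5 and Krt15. They differed in the 7 mammary epithelium markers, which summed to 231 FPKM in F22 and 2.03 FPKM in M14. In M21 and M34 the sums were 0.57 and 0.65 FPKM, against 0.24 to 43830 FPKM elsewhere. Among these markers, Krt18 was at 144 FPKM in F22 and 0.39 FPKM in M14, and Krt8 at 56.4 and 0.19 FPKM. The part of skin or of mammary epithelium in these values was not tested.

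The genes outside the set whose pattern was most like it were ranked by the Pearson correlation of log2(FPKM + 1) with the mean of the 43 genes over the 29 columns, which mostly share the absence of muscle messages. The first 3 were Eef1a2, a translation elongation factor of muscle and neurons (r = 0.996), Rpl3l, a ribosomal protein of striated muscle (r = 0.994), and Apobec2, a member of the cytidine deaminase family found in muscle (r = 0.994). Tmod4, a skeletal tropomodulin, and the junctional proteins Trdn, Hrc and Jsrp1 followed, at r from 0.987 to 0.992. Eef1a2 was at 495 FPKM in F22, 33.7 FPKM in M14, 23.4 FPKM in M21 and 3.93 FPKM in M34, against at most 1.0 FPKM elsewhere. It thus also separated the 4 libraries from all other columns.

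To show what these genes have in common at their starts, the RefSeq windows from 250 bases before to 50 bases after the transcription start were searched on both strands. RefSeq (GRCm38.p6) gave 40 windows for 32 of the 43 genes. TATAAA occurred in 22.5% of these windows, against 13.6% of all 32851 windows, the MEF2 consensus in 15.0% against 3.19%, the CArG box in 15.0% against 1.63%, CANNTG in 82.5% against 72.3% and its form CAGCTG in 47.5% against 16.3%. A base can belong to more than one motif, every CAGCTG also counts as CANNTG, and a match is a description of the letters. The windows of 4 genes are shown, for the most abundant gene (Acta1), muscle creatine kinase (Ckm), and the chains that set fast from slow fibres (Myh4 and Myh7). Capitals mark TATAAA, MEF2 consensus, CArG box and CAGCTG matches on either strand. The windows lie at chr8:123894726-123895025 (minus strand), chr7:19410844-19411143 (plus), chr11:67237562-67237861 (plus) and chr14:54994577-54994876 (minus):
Acta1: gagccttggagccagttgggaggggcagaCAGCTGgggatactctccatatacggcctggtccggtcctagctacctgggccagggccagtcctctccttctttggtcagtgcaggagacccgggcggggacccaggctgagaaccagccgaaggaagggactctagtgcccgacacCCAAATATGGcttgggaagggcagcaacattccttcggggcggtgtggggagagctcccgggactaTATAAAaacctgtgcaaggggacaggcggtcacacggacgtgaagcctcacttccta
Ckm: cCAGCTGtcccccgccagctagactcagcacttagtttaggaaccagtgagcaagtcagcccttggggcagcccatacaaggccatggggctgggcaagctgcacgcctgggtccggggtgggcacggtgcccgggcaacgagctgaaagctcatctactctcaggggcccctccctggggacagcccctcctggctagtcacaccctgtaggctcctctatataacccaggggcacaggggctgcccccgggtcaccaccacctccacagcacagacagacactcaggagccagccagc
Myh4: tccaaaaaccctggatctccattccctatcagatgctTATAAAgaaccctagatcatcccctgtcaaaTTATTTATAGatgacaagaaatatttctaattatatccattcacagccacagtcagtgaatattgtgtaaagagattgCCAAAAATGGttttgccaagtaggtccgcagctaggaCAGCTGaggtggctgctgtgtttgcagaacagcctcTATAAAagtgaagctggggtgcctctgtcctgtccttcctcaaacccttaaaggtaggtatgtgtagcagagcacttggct
Myh7: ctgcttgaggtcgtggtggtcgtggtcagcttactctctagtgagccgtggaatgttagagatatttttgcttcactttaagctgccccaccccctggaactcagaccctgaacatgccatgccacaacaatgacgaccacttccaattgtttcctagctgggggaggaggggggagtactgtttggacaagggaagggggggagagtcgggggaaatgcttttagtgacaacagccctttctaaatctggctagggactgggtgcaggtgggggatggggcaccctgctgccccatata
The Myh4 window holds 3 TATAAA, 1 MEF2 consensus, 1 CArG box and 1 CAGCTG match. The Acta1 window holds 1 TATAAA, 1 CArG box and 1 CAGCTG match, and the Ckm window 1 CAGCTG match. None of the 4 capitalised motifs is in the Myh7 window, and nothing about a factor follows from that.

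The group comparisons of the study asked what CL did in each sex and genotype and what the knockout did in each sex and treatment. Of the 43 genes 41 passed the filter (at least 1 FPKM in at least 3 mice), and Tnni1 and Sln did not. With limma on log2(FPKM + 1) and Benjamini-Hochberg adjustment over the 13174 genes, 3 of the 41 passed an adjusted p of 0.05 in 1 comparison, CL against NaCl in female KO mice, all lower with CL. There 2.28% of all genes were called lower. In the other 7 comparisons limma called 0 of the 41 in either direction. All genes called there were 11.3% for CL in male WT mice, 3.56% for CL in female WT mice, 7.25% for CL in male KO mice, 1.94% for KO against WT in males given CL, 12.6% in females given CL, 7.34% in males given NaCl and 0.509% in females given NaCl. At an unadjusted limma p under 0.05 the counts among the 41 were 0 for CL in male WT, 2 in female WT, 22 in male KO and 40 in female KO mice, and 0 for KO against WT in males given CL, 0 in females given CL, 27 in males given NaCl and 1 in females given NaCl. Among all 13174 genes the counts were 3210, 2902, 2954 and 2846 for CL in the same order. For KO against WT they were 1848, 3835, 3398 and 1218. The 41 genes rise together in the same libraries, so a high count is not many separate results. Each of the 4 libraries sits in a different group. The median log2 difference over the 41 genes was 1.12 for CL in male WT mice (M14 in the CL group), -2.51 in female WT mice (none of the 4), -3.06 in male KO mice (M34 in the CL group, M21 in the NaCl group) and -3.82 in female KO mice (F22 in the NaCl group), and without the 4 libraries these medians were 0, 0.07, -0.63 and 0.05. For KO against WT it was -0.60 in males given CL, -0.05 in females given CL, 3.45 in males given NaCl and 1.36 in females given NaCl, and without the 4 libraries -0.01, -0.05, 0.51 and -0.07. The medians over all genes lay between -0.09 and 0.09 in the fit of all mice. The filter was set on all mice, and 13 of the 43 genes were under 1 FPKM in every column outside the 4 libraries. Such genes can differ little once those libraries are left out, which draws the medians towards 0. Fitted differences include a term for the table, so they can depart from the measured levels wherever a group has columns of the second table. That term is set by the groups with columns of both tables: female KO, female WT and male KO mice given NaCl. F22 and M21 are first-table columns of these groups. Their levels therefore also enter the fitted differences of female WT mice, although none of the 4 libraries is in those groups. In female WT mice the fitted differences departed from the measured levels: Myl1 averaged 95.5 ± 10.5 FPKM with CL (SD, n = 4) and 68.4 ± 1.06 FPKM with NaCl (SD, n = 2), but its fitted log2 difference, which includes the term for the table, was -1.67 ± 1.41 (limma adjusted p = 0.5, from 0.12 to 1 over the alternatives). Nothing in the labels says which animal a library came from, so these p-values cover the spread between samples, which may be technical.

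The 3 genes called in female KO mice were ones also made in fat. Fhl1 was at 24.8, 28.1 and 28.9 FPKM with CL, against 32.7, 38.5 and 821 FPKM (F22) with NaCl, a log2 difference of -2.41 ± 0.65 (SE, limma, Benjamini-Hochberg adjusted p = 0.028). Tmod1 was at 4.82, 5.88 and 6.44 FPKM with CL, against 6.69, 12.2 and 88.5 FPKM (F22) with NaCl, a log2 difference of -2.07 ± 0.57 (limma adjusted p = 0.03). Fbxo32 was at 2.17, 2.17 and 2.36 FPKM with CL, against 2.3, 2.5 and 24.9 FPKM (F22) with NaCl, a log2 difference of -1.41 ± 0.43 (limma adjusted p = 0.048). The CL and NaCl columns did not overlap for Fhl1 and Tmod1 (nor for Ryr1, which makes 3 of the 41, against 9.4% of all genes) but did for Fbxo32, and without F22 none of the 41 was called: the log2 differences were -0.63, -0.86 and -0.26, with limma adjusted p of 0.18, 0.3 and 0.48. Without F24, another female KO mouse given NaCl, all 41 were called lower, with 5.37% of all genes called lower. Over all 37 alternative fits the limma adjusted p ran from 0.00011 to 0.42 for Fhl1, from 0.0028 to 0.33 for Tmod1 and from 5.9e-05 to 0.81 for Fbxo32. Genes with far larger differences were not called: Ckm was at 0.16 ± 0.19 FPKM with CL, against 2772 ± 4801 FPKM with NaCl (SD, n = 3 each), with a log2 difference of -5.97 ± 2.61 (limma adjusted p = 0.18). The log2 differences given here for female KO mice included the term for the table and were larger in size than the differences of the groups' mean log levels.

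Among male mice given NaCl, several fast fibre genes and Ckm were higher in every KO column than in any WT column. Ckm was at 498 FPKM (M21), 31.3 FPKM (M22) and 26.6 and 5.24 FPKM (M23) in KO mice, against 0.06, 0.05, 0 and 0.11 FPKM in WT mice. Tnnt3 was at 695, 35.7, 43.7 and 6.14 FPKM in the KO columns, against 0.41, 0.49, 0.54 and 1.02 FPKM in the WT columns. Myh4 was at 199, 4.55, 10.3 and 0.16 FPKM in the KO columns, against 0.03, 0.02, 0.01 and 0.04 FPKM in the WT columns. For these 3 genes the groups did not overlap, and the same held for 17 of the 41 genes, all higher in KO, against 8.41% of all genes. That count is a description and no independent support. M21 was singled out by these same genes, both M23 columns are among the KO columns, and the 41 genes rise together. In the fit of all mice none of the 41 passed, with a log2 difference of 8.41 ± 2.65 for Ckm (limma adjusted p = 0.057). That difference included the term for the table and was larger than the difference of the groups' mean log levels. Without F22, M14, M21 and M34, 13 of the 41 were called higher in KO, with 1.61% of all genes called higher, and the log2 difference was 4.39 ± 0.49 for Ckm (limma adjusted p = 0.00015) and 2.1 ± 0.2 for Myh4 (limma adjusted p = 2.3e-05). The 13 were Actn3, Atp2a1, Ckm, Myh1, Myh4, Mylpf, Pvalb, Tcap, Tnnc2, Tnni2, Tnnt3, Pgam2 and Myoz1, which are metabolic genes and fast or general forms, with no slow form among them.

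That result has limits set by the samples. The removed libraries were picked by these same genes, which makes the remaining spread small, and over all 37 alternative fits the limma adjusted p ran from 0.00015 to 0.26 for Ckm and from 2.3e-05 to 0.32 for Myh4. Without F24 of the female KO mice given NaCl, 36 of the 41 were called higher in male KO mice (4.49% of all genes). The fit also holds a term for the difference between tables, which rests on few mice, so its log2 differences can depart from the groups' mean log values. In the fit without the 4 libraries M22 and M23 are the only male KO mice given NaCl, M22 is in the second table and M23 is averaged over both. CL against NaCl in male KO mice shares these mice: 0 of the 41 passed in the fit of all mice, and without the 4 libraries 13 were called lower with CL (1.68% of all genes), Ckm by a log2 difference of -4.37 ± 0.50 (limma adjusted p = 0.00041, from 0.00041 to 0.38 over the alternatives). Ckm read 0, 0.17, 0.04 and 148 FPKM (M34) in male KO mice given CL, so a muscle-rich library occurred there too. Without F24, 30 of the 41 were called lower with CL in male KO mice (6.1% of all genes).

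A few of the genes had measurable levels in all fat columns, and for these smaller differences between groups could be read. Acta1, Myl1, Eno3, Fhl1, Tmod1 and Fbxo32 were at 1 FPKM or more in all 25 other columns. Between female KO and WT mice given CL, where no muscle-rich library falls, Myl1 was at 51.0, 60.03 and 50.3 FPKM in KO, against 85.0, 109, 89.8 and 98.3 FPKM in WT. Tmod1 was at 5.88, 6.44 and 4.82 FPKM in KO, against 2.61, 2.19, 2.37 and 3.32 FPKM in WT. The groups did not overlap for either gene, nor for Fbxo32 (2.17, 2.17 and 2.36 FPKM in KO, against 1.66, 1.14, 1.03 and 1.78 FPKM in WT) and Pygm (0.97, 1.3 and 1.14 FPKM in KO, against 2.68, 1.76, 2.42 and 1.91 FPKM in WT). Such separation, at 2 of 41 higher and 2 of 41 lower, was no more common than among all genes, of which 15.7% were higher and 6.88% lower. The fit of all mice, which shares its spread with F22, M14, M21 and M34, called none of them, with a Myl1 log2 difference of -0.82 ± 0.99 (limma adjusted p = 0.64). Without those libraries the same log2 difference had an SE of 0.13 (limma adjusted p = 0.0015, from 0.0015 to 0.78 over the alternatives), and Tmod1, at 0.89 ± 0.21 (0.0094, from 0.0094 to 0.42), Fbxo32, at 0.44 ± 0.12 (0.016, from 0.016 to 0.66), and Pygm, at -0.57 ± 0.15 (0.017, from 0.017 to 0.99), passed too. In that fit 12.9% of all genes were called higher and 5.28% lower. None of the removed libraries is in these groups, and they were picked by these same genes. Only the spread shared by the fit became smaller, so these p-values are no independent support. The only other member called in that fit for a CL comparison in females was Fbxo32, lower with CL in WT mice, where 2.64% of all genes were called lower.

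**Figure D5:**
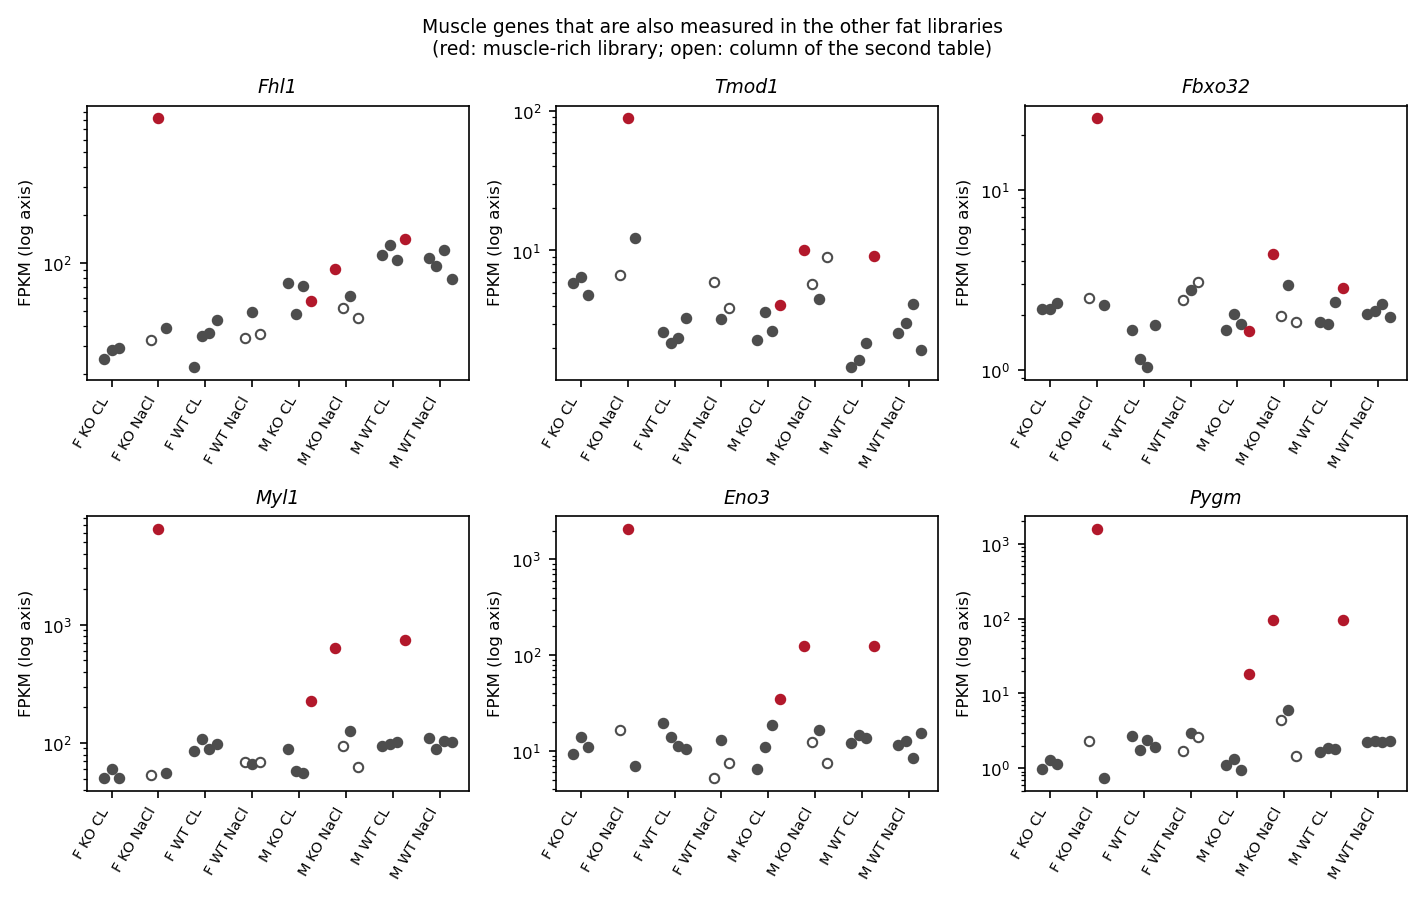
FPKM (log axis) of Fhl1, Tmod1, Fbxo32, Myl1, Eno3 and Pygm in each column by group, with muscle-rich libraries in red and second-table columns open. Tmod1 lies higher and Myl1 lower in female KO than in female WT mice given CL, and Fhl1 has medians of 78.7 FPKM in male and 34.1 FPKM in female columns outside the 4 libraries, with ranges that overlap.

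Fhl1 also had different levels in the sexes. Outside the 4 libraries it ranged from 44.7 to 129 FPKM in male columns (median 78.7 FPKM) and from 21.9 to 48.8 FPKM in female columns (median 34.1 FPKM), a description without a test. With CL it was at 74.7, 47.8, 71.3 and 57.2 FPKM (M34) in male KO mice, against 112, 129, 104 and 142 FPKM (M14) in male WT mice. These groups did not overlap, as for 1 of the 41 genes and 7.89% of all genes in that direction, and the log2 difference of -0.96 ± 0.53 was not called (limma adjusted p = 0.45). Without the 4 libraries it was -0.84 ± 0.21 (limma adjusted p = 0.062, from 0.0056 to 0.64 over the alternatives). Myl3 separated male WT mice by treatment: the columns read 1.66, 0.86, 1.53 and 15.1 FPKM (M14) with CL, against 0.1, 0, 0 and 0 FPKM with NaCl. The columns did not overlap for this 1 gene of the 41, against 9.53% of all genes, and its log2 difference of 1.88 ± 0.97 was not called with M14 (limma adjusted p = 0.24). Without the 4 libraries it was 1.18 ± 0.26 (limma adjusted p = 0.0073, from 0.0073 to 0.58 over the alternatives), with 5.17% of all genes called higher. The libraries left out, M14 among them, were picked by these same genes, so this p-value and that for Fhl1 are no independent support.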

How the data were processed

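RNA of subcutaneous fat was sequenced, and FPKM per gene was deposited by the authors in 2 tables with 24 and 5 columns. Reads were aligned with HISAT2 2.0.4 to GRCm38 (mm10), per the submitters' processing notes. Which program made the FPKM, with which annotation and at what depth, is not given in the sources used, so no counting interval can be given. FPKM is relative: a gene that takes a large share of a library lowers the others. Columns F4 and M23 of both tables were averaged as 1 mouse each. Of the sample records, 2 had no column and were not analysed here. They belong to female WT mice given NaCl and to male KO mice given NaCl, the groups of F4 and M23. Whether a column of a repeated name stands for such a record is not stated.

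Genes listed in both tables (17536) were filtered to at least 1 FPKM in at least 3 mice, which left 13174. These same genes were used when mice or libraries were left out. limma 3.58.1 in R 4.3.3 was run on log2(FPKM + 1) with 8 group means and a table term (0.5 for averaged mice), with an intensity trend and Benjamini-Hochberg adjustment over all 13174 genes at a threshold of 0.05. The script was tested on simulated data with known changes. Fold changes of low genes are understated by the pseudocount of 1. Ranges and shares used Python 3.11.15 and pandas 2.3.3. All 43 genes could be named. Of other genes, those named were Ncoa1, Ddx3y, genes among the 6 with the highest FPKM of a list, and genes among the 10 of at least 5 FPKM on average with the highest Pearson correlation with the mean of the 43. Outside this rule, Art1 was named after its values were seen, and Myh6 for its shared sequence. The members and lists were chosen with earlier results of these data known. Alternatives were another pseudocount, no filter, quantile normalization, rescaling, only the groups compared, other uses of the tables, a replicate block, leaving out each mouse and leaving out F22, M14, M21 and M34.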

Additional observations from a re-analysis of the deposited data

Results flagged for a closer look

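Within each group of 4 mice the summed FPKM of each role was checked for a mouse far from the other 3. This gave 24 checks, of which chance flags about 5 percent, and 10 stood out, all of them M14 or M34. Since these libraries were singled out by the same genes, the values are a description.

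In M14 (male WT, CL, replicate 4) the thick filament genes summed to 1574.0 FPKM, against 98.0 to 107 FPKM in the other male WT mice given CL. The thin filament genes summed to 2573 FPKM against 20.5 to 35.4 FPKM, and the Z disc genes to 486 FPKM against 106 to 131 FPKM. Calcium handling genes summed to 564 FPKM against 0.91 to 1.42 FPKM, metabolic genes to 862 FPKM against 14.8 to 18.0 FPKM, and the 2 ubiquitin ligases to 6.2 FPKM against 1.8 to 2.39 FPKM. M14 was thus far above its group in every role.

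In M34 (male KO, CL, replicate 4) the thick filament genes summed to 365 FPKM, against 58.7 to 91.4 FPKM in the other male KO mice given CL. The thin filament genes summed to 666 FPKM against 13.8 to 19.0 FPKM, calcium handling genes to 113 FPKM against 0.48 to 0.55 FPKM, and metabolic genes to 232 FPKM against 9.16 to 21.2 FPKM. Its Z disc genes and ligases did not stand out by this measure. F22 and M21 belong to groups of 3 mice, which were not examined in this way.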

How the results depend on the processing

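The levels and shares above are the deposited FPKM, and the counts of the 41 genes called by limma are what the processing moves. The named log2 differences of single genes kept their sign, apart from Myl1 for CL in female WT mice (-2.79 to 0.52), but the medians over the 41 genes did not: without the 4 libraries that for CL in female KO mice was 0.05 in place of -3.82, and in female WT mice 0.07 in place of -2.51. In female KO mice, CL against NaCl (3 lower) gave 1 with quantile normalization, 0 with only the groups compared, 1 with the first-table and 6 with the second-table column of F4 and M23, and 0 without F22, M14, M21 and M34. KO against WT in males given NaCl (0 higher) gave 2 with a pseudocount of 0.1, 7 with only the groups compared, 3 with the second-table column and 13 without the 4 libraries. CL in male KO mice (0 lower) gave 13 without them, and CL in male WT mice (0 higher) gave 1 with a pseudocount of 0.1 and 1 without them. CL in female WT mice (0 lower) gave 1 without them (Fbxo32). KO against WT in females given CL gave 1 higher and 1 lower with only the groups compared, and 2 higher and 2 lower without the 4. In males given CL, 1 lower was called with only the groups compared. Leaving out each mouse in turn gave 0 to 41 lower for CL in female KO, 0 to 30 lower in male KO, 0 to 3 lower in female WT and 0 to 1 higher in male WT mice. For KO against WT it gave 0 to 36 higher in males given NaCl, 0 to 1 lower in males given CL and 0 to 1 higher in females given CL. The highest counts came without F24, which leaves F21 of the second table and F22 in its group. Replicate numbers do not pair the mice (correlations of deviations from -0.48 to 0.34). With the replicate block 15 of the 41 were called higher in male KO mice given NaCl, and 1 lower with CL in male KO mice. Apart from the shares printed earlier, these counts stand without the share of all genes called under the same setting. They show how far the processing moves them and are no result about the 41 genes. Of the counts under other settings 140 stayed within 1.5 times and 20 moved, and of those with a mouse left out 414 stayed and 18 moved; the cause was not tested. Levels under about 1 FPKM are limited by an unknown read depth.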
